A study of Homo sapiens with 24 samples.

Results

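YAP1, its paralogue TAZ (gene WWTR1), the TEAD DNA-binding proteins (TEAD1, TEAD2, TEAD3 and TEAD4) and the vestigial-like cofactors VGLL1, VGLL3 and VGLL4 make up the 9 genes described here. They were chosen by symbol, and each has 1 row among the 25365 gene rows of the deposited expression table. The unit, FPKM, counts sequenced fragments relative to transcript length and to all mapped fragments, so levels of different genes can be set beside each other per length. The table holds messenger RNA levels of 24 libraries from the epithelial lung cancer lines HCC4006 and PC9, which carry activating EGFR mutations. In each line, YAP1 KO cells and control (CTRL) cells received either OT, which is osimertinib at 100 nM (an inhibitor of mutant EGFR) with trametinib at 30 nM (an inhibitor of MEK), or the vehicle DMSO, for 24 hours. The groups were, in HCC4006 and again in PC9, YAP1 KO with OT, CTRL with OT, YAP1 KO with DMSO and CTRL with DMSO, with 3 dishes each. Each line has a single YAP1 KO label, and the labels do not say whether those cells are a clone, so the p-values measure the spread between dishes of the same populations. The column headers carry a different code for the YAP1 KO cells of each line, and the meaning of the codes is not given. The comparison of these groups asks how the drug pair changes transcription when YAP1 is present or missing.

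YAP1 and TAZ are coactivators that bind no DNA themselves. When the Hippo kinases MST1/2 and LATS1/2 are active, YAP1 and TAZ are phosphorylated and held in the cytoplasm. When the kinases are quiet, both proteins enter the nucleus and switch on genes through the TEAD factors, which recognise a short DNA core. VGLL proteins bind the same face of TEAD, and VGLL4 is known as a competitor that represses TEAD targets. In lung cancer lines treated with EGFR inhibitors, the YAP1 and TEAD pathway is known for its part in the survival of drug-exposed cells.

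The core sequence that TEAD proteins recognise was looked for in the promoters of the members themselves. The RefSeq promoter table (GRCh38.p14) held 7 of the 9 members with 13 start sites, and TEAD1 and TEAD4 were not among them. GGAATG, or its reverse complement CATTCC, lay within 250 bases before a start in 2 of the 13, in YAP1 and in VGLL1, against 11.9% of 35116 promoters of the same length. The AP-1 motif TGANTCA, searched on both strands, lay in 0 of the 13, against 6.57% of all. These windows are shown because they hold the core. Both are plus-strand sequences written 5′ to 3′, and capitals mark the TEAD core. YAP1 lies on chromosome 11, chr11:102110197-102110446, with the core's first base 162 bases before the start. VGLL1 lies on chromosome X, chrX:136531965-136532214, with the core's first base 157 bases before the start.
YAP1: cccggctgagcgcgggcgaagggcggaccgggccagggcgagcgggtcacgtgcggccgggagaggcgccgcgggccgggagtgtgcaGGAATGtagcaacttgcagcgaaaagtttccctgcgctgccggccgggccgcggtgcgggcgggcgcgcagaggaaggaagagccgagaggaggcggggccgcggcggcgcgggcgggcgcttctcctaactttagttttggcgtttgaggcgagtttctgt
VGLL1: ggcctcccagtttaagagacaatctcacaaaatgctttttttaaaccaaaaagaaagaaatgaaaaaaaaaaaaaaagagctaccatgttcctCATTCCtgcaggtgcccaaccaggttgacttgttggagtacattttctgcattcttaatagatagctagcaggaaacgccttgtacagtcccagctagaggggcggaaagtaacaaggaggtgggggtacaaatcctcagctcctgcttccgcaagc
The match is a description of letters and says nothing about binding in these cells.

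The FPKM of a library summed to between 507120 and 660459, and the number of sequenced fragments is unknown. The sum followed treatment. In HCC4006 it ran from 507120 to 574160 with OT and from 621936 to 660459 with DMSO. In PC9 it ran from 566982 to 593526 with OT and from 604392 to 620813 with DMSO. The HCC4006 CTRL OT replicate 1 stood apart from its group. Its genes deviated from the group median by 0.137 on average on the log2 scale, against 0.0498 to 0.0753 in the other 23 libraries, and its relative depth was 1.42 against 0.942 to 1.2. The estimates that rest on it are given without it as well, in a paragraph on HCC4006 without that library or beside the value. Epithelial markers were present in both lines, with EPCAM, a surface protein of epithelial cells, at 240 to 335 FPKM in HCC4006 and 263 to 375 FPKM in PC9. KRT18, an epithelial keratin, spread from 78.0 to 895 FPKM over the HCC4006 libraries. The summed level of the 6 epithelial markers in HCC4006 ran from 3053 to 3106 FPKM in YAP1 KO cells with OT and from 4893 to 5177 with DMSO, and from 4301 to 4663 in CTRL cells with OT and from 6038 to 6388 with DMSO. In PC9 it ran from 7764 to 7989 in YAP1 KO cells with OT and from 5874 to 6051 with DMSO, and from 9288 to 9582 in CTRL cells with OT and from 6495 to 6643 with DMSO. With OT in CTRL cells 4 of the 6 were called lower and 1 higher in HCC4006, and 1 lower and 5 higher in PC9. The part of these markers in the results was not tested. The lung lineage factor NKX2-1 ran between 15.99 and 56.5 FPKM in HCC4006 and did not pass 0.938 FPKM in PC9, and the surfactant gene SFTPB did not pass 0.232 FPKM in either line. In bulk libraries such as these, fewer cells of a type and less RNA per cell cannot be told apart.

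Under DMSO, control HCC4006 cells held a different mix of these factors from control PC9 cells. WWTR1 and TEAD1 were higher in HCC4006, and YAP1, TEAD2, TEAD3, TEAD4, VGLL1 and VGLL4 were lower. VGLL3 was the member with no call, at 0.941, 0.606 and 1.1 FPKM in HCC4006 and 0.890, 1.1 and 1.25 FPKM in PC9. A gene was called where limma on log2(FPKM + 1) gave a Benjamini-Hochberg adjusted p under 0.05 over all genes tested. The 8 called members of 9 (2 higher, 6 lower) stand beside a background of 82.6% of 13996 genes called, 39.2% higher and 43.4% lower, so the share is near that of all genes. The median log2 difference was -0.94 over the members and -0.04 over all genes.

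**Figure D1:**
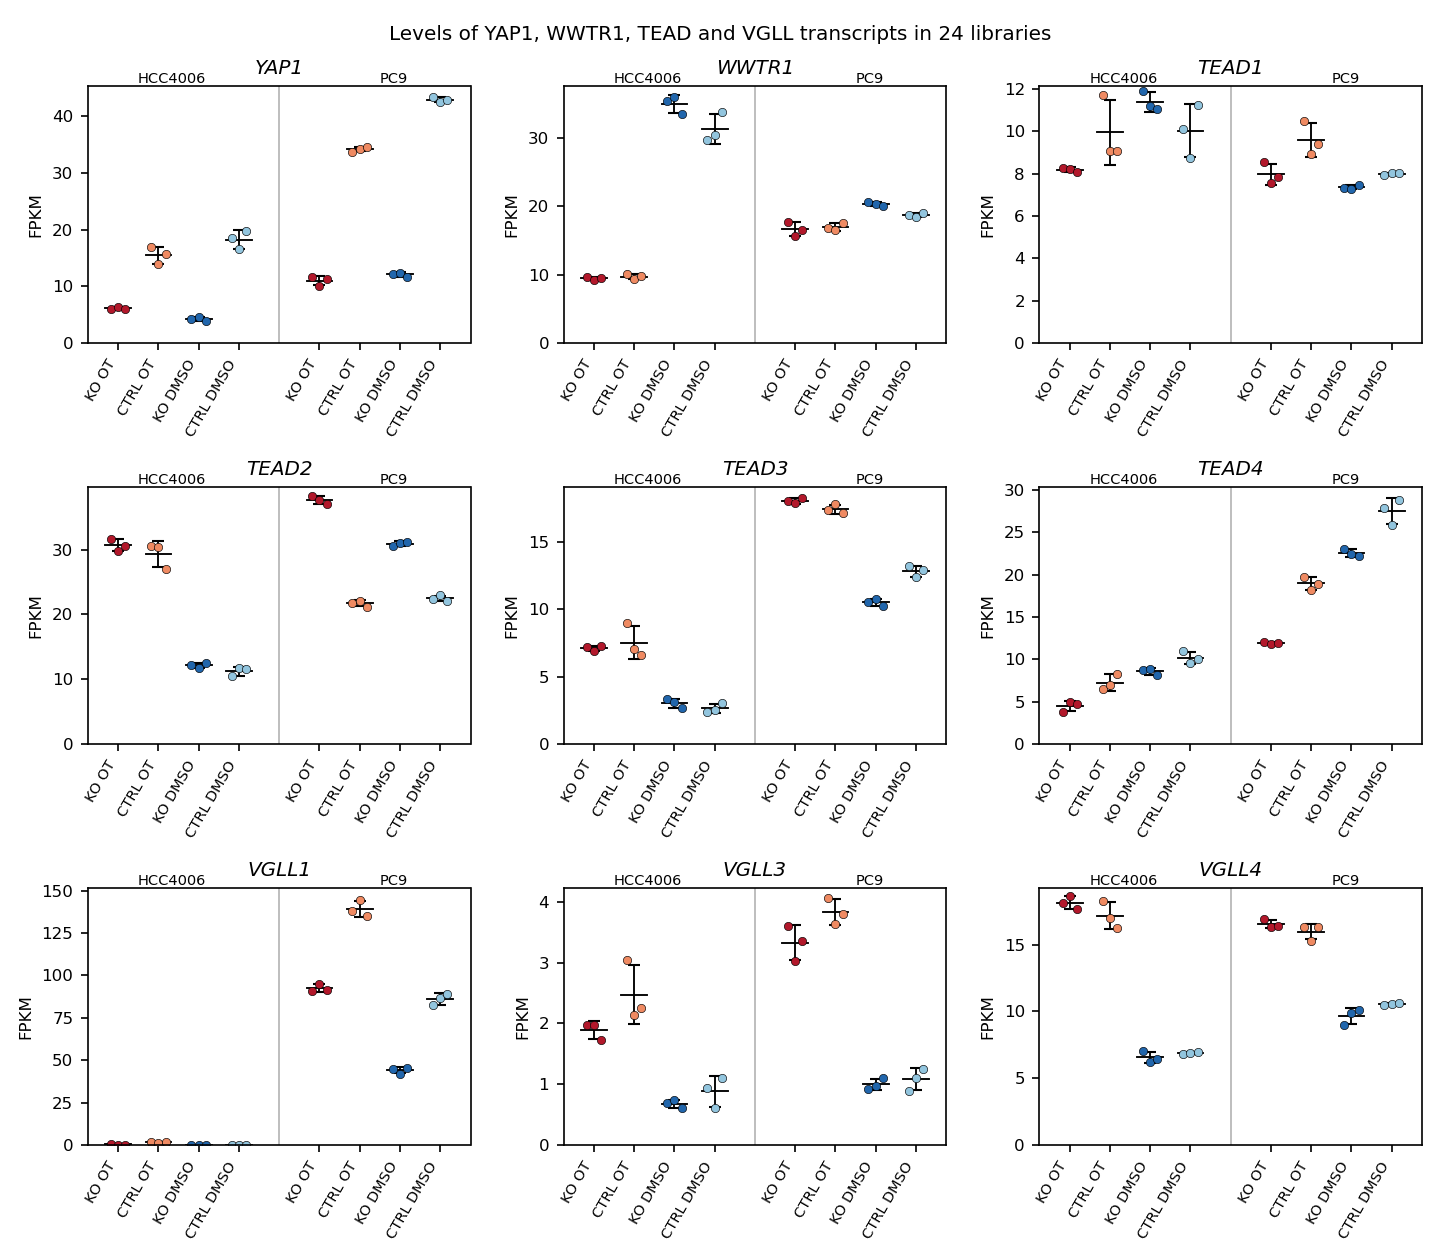
FPKM of the 9 genes in each of the 24 libraries, 1 panel per gene on its own linear scale, with groups along the horizontal axis (HCC4006 left of PC9, and in each line YAP1 KO OT, CTRL OT, YAP1 KO DMSO, CTRL DMSO). Points are libraries and bars are the mean ± SD of 3. WWTR1 drops to between 9.20 and 10.03 in the OT groups of HCC4006, and VGLL1 stays at or under 1.94 in every HCC4006 library.

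Under DMSO, YAP1 came after WWTR1 among the members in control HCC4006 cells and after VGLL1 in control PC9 cells. Its level under DMSO was 18.5, 16.5 and 19.7 FPKM in HCC4006 CTRL cells and 43.3, 42.5 and 42.9 FPKM in PC9 CTRL cells. The groups did not overlap (log2 difference -1.19 ± 0.07 SE, limma adjusted p = 9.78e-13). WWTR1 ran the other way, with 29.6, 30.4 and 33.7 FPKM in HCC4006 against 18.8, 18.4 and 19.0 FPKM in PC9. All HCC4006 libraries lay above all PC9 libraries (log2 difference 0.71 ± 0.05, adjusted p = 1.72e-11). TAZ messenger RNA therefore stood at 1.72 ± 0.123 times that of YAP1 in HCC4006 and at 0.436 ± 0.00507 times in PC9 (SD, n = 3 each), with every HCC4006 library above every PC9 library (exact two-sided permutation p = 0.1, the smallest that 3 against 3 allows).

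In CTRL cells under DMSO, TEAD genes other than TEAD1 had lower levels in HCC4006. TEAD3 had 2.38, 2.54 and 3.02 FPKM there and 13.2, 12.4 and 12.9 FPKM in PC9 (log2 difference -1.93 ± 0.08, adjusted p = 5.42e-15). TEAD4 averaged 10.2 ± 0.688 FPKM in HCC4006 and 27.5 ± 1.53 FPKM in PC9, and TEAD2 averaged 11.2 ± 0.675 and 22.5 ± 0.403 FPKM in the same order of lines (SD, n = 3 each). Both were called lower in HCC4006. TEAD1 was slightly higher there, at 10.04 ± 1.25 against 7.996 ± 0.0515 FPKM (log2 difference 0.29 ± 0.08, adjusted p = 0.00294), but with libraries rescaled to the same FPKM sum the difference was 0.22 and not called (adjusted p = 0.0529).

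VGLL1, a TEAD cofactor best known from the placenta, separated the lines by the widest margin among the 9. HCC4006 CTRL cells under DMSO had 0, 0.0589 and 0.118 FPKM, and PC9 CTRL cells had 82.5, 87.0 and 89.3 FPKM. It was the most abundant member in PC9 and lay near zero in HCC4006 (difference of -6.37 ± 0.10 in log2(FPKM + 1), adjusted p = 1.63e-21). VGLL4 averaged 6.91 ± 0.0738 FPKM in HCC4006 and 10.6 ± 0.0920 FPKM in PC9, a called difference of -0.55.

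OT changed the transcripts of the family in both lines and both genotypes. WWTR1 and TEAD4 fell in all 4 comparisons of OT with DMSO, and TEAD3, VGLL3 and VGLL4 rose in all 4. In HCC4006, VGLL3 entered the test through the OT libraries, in which it was high. TEAD2 rose in HCC4006 of both genotypes and in PC9 YAP1 KO cells. YAP1 rose in HCC4006 YAP1 KO cells and fell in the other groups. The calls of WWTR1 in HCC4006 and in PC9 YAP1 KO cells, and all those of TEAD3, TEAD4, VGLL3 and VGLL4, also held with median-of-ratios scaling and with libraries rescaled to the same FPKM sum.

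In each of the 4 comparisons 8 of 9 members were called, 5 higher and 3 lower, and that share is near the background. In HCC4006 YAP1 KO cells 82.8% of 13113 genes were called (46.4% higher, 36.5% lower), and the median log2 change was 0.45 over the members and 0.11 over all genes. In HCC4006 CTRL cells 81.6% were called (45.0% higher, 36.6% lower), with medians of 0.89 and 0.09. In PC9 YAP1 KO cells 78.3% of 12685 genes were called (36.9% higher, 41.4% lower), with medians of 0.28 and -0.02. In PC9 CTRL cells 73.0% were called (32.0% higher, 40.9% lower), with medians of 0.23 and -0.04. The count for HCC4006 CTRL includes VGLL1, which reached 1 FPKM in HCC4006 only in the CTRL OT libraries and so passed the filter through the group where it was high. Both HCC4006 counts include VGLL3, which passed the filter there through the OT libraries, where it was high. Scaling bears on these splits. With libraries rescaled to the same FPKM sum, the median change of all genes became 0.28 in both HCC4006 comparisons, and the split in HCC4006 CTRL cells became 7140 higher and 3582 lower, against 5896 and 4804 with FPKM as deposited.

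**Figure D2:**
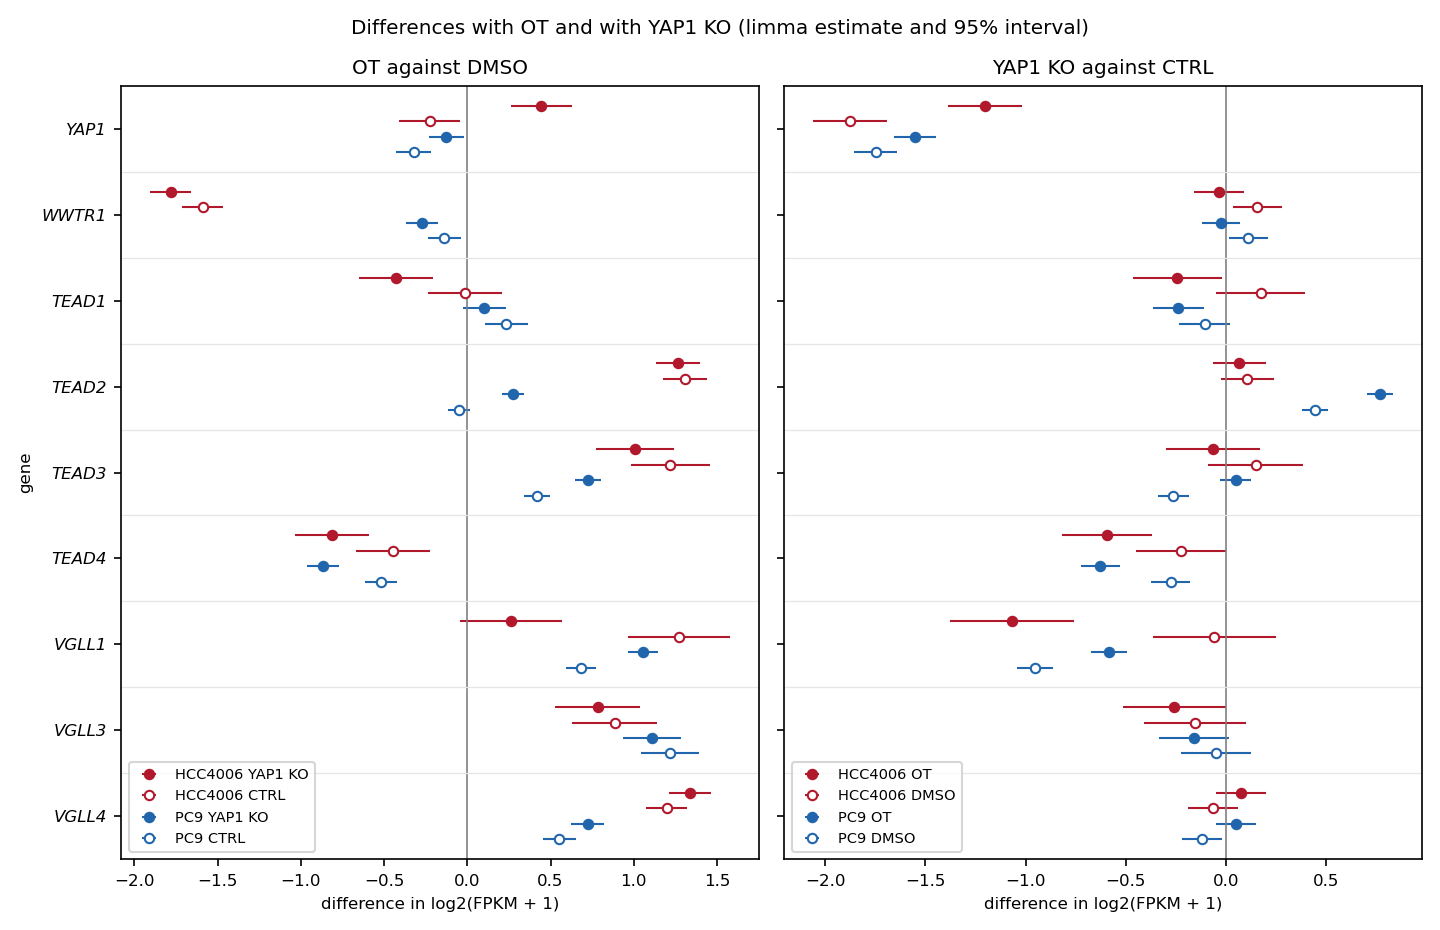
Log2 changes of the 9 genes estimated with limma, with 95% intervals at the residual degrees of freedom. The left panel shows OT against DMSO (filled for YAP1 KO and open for CTRL). The right panel shows YAP1 KO against CTRL (filled for OT and open for DMSO). HCC4006 is in red and PC9 in blue. In the left panel TEAD3, VGLL3 and VGLL4 lie right of 0 in all 4 comparisons and WWTR1 lies far left of 0 in HCC4006.

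WWTR1, the TAZ gene, fell with OT in HCC4006 of both genotypes. It had 9.67, 9.20 and 9.47 FPKM in YAP1 KO cells with OT and 35.3, 35.9 and 33.4 FPKM in YAP1 KO cells with DMSO. CTRL cells had 10.03, 9.33 and 9.75 FPKM with OT and 29.6, 30.4 and 33.7 FPKM with DMSO. No OT library came near any DMSO library, and the genotypes overlapped under OT. The log2 change was -1.78 ± 0.05 in YAP1 KO cells (adjusted p = 1.40e-11) and -1.59 ± 0.05 in CTRL cells (adjusted p = 5.16e-11), which left 0.271 and 0.310 of the DMSO mean.

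In PC9 the fall of WWTR1 was small. YAP1 KO cells had 17.7, 15.7 and 16.5 FPKM with OT and 20.7, 20.2 and 20.03 FPKM with DMSO, a log2 change of -0.27 ± 0.04 (adjusted p = 6.96e-05). CTRL cells had 16.7, 16.5 and 17.6 FPKM with OT and 18.8, 18.4 and 19.0 FPKM with DMSO, a log2 change of -0.14 ± 0.04 (adjusted p = 0.0111). That of the CTRL cells was not called with median-of-ratios scaling (-0.07, adjusted p = 0.136) or with the same FPKM sum (-0.08, adjusted p = 0.119). The line difference was itself tested in CTRL cells: the OT response of WWTR1 in HCC4006 minus that in PC9 was -1.45 ± 0.07 (adjusted p = 3.02e-13).

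YAP1 shifted by less than WWTR1 with OT in HCC4006. In HCC4006 YAP1 KO cells it had 5.97, 6.34 and 6.07 FPKM with OT and 4.23, 4.59 and 3.90 FPKM with DMSO, so the residual transcript rose (log2 change 0.45 ± 0.08, adjusted p = 0.000213). In HCC4006 CTRL cells it had 16.9, 13.9 and 15.6 FPKM with OT and 18.5, 16.5 and 19.7 FPKM with DMSO, and the ranges overlapped. The log2 change of -0.23 ± 0.08 was called (adjusted p = 0.0198), but it was not called without CTRL DMSO replicate 1 (adjusted p = 0.0546), CTRL DMSO replicate 3 (0.0857) or CTRL OT replicate 2 (0.0941). It was -0.01 (adjusted p = 0.917) with the same FPKM sum. Without the CTRL OT replicate 1 that stood apart it was -0.29 (adjusted p = 0.00615).

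In PC9 CTRL cells YAP1 fell to 33.8, 34.2 and 34.5 FPKM with OT, against 43.3, 42.5 and 42.9 FPKM with DMSO. The groups were well apart (log2 change -0.32 ± 0.05, adjusted p = 4.41e-05). In PC9 YAP1 KO cells the values were 11.6, 10.1 and 11.3 FPKM with OT and 12.2, 12.4 and 11.6 FPKM with DMSO (log2 change -0.13 ± 0.05, adjusted p = 0.0244). That call was lost with the same FPKM sum (-0.03, adjusted p = 0.563), with median-of-ratios scaling (-0.09, adjusted p = 0.0884) and on leaving out replicate 1 (0.0629) or 2 (0.0816) of the DMSO dishes or replicate 2 of the OT dishes (0.102).

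Among the DNA-binding partners, TEAD2 and TEAD3 rose and TEAD4 fell with OT in HCC4006. TEAD2 had 31.6, 29.8 and 30.5 FPKM in YAP1 KO cells with OT and 12.1, 11.7 and 12.6 FPKM with DMSO. CTRL cells had 30.5, 30.3 and 27.0 FPKM with OT and 10.5, 11.7 and 11.5 FPKM with DMSO. The OT and DMSO libraries were far apart in both genotypes, with log2 changes of 1.27 ± 0.06 in YAP1 KO cells (adjusted p = 6.08e-10) and 1.31 ± 0.06 in CTRL cells (adjusted p = 5.69e-10). In PC9 CTRL cells TEAD2 had 21.8, 22.1 and 21.2 FPKM with OT and 22.4, 22.9 and 22.1 FPKM with DMSO, and was not called (log2 change -0.05, 95% interval -0.11 to 0.02). The OT response of TEAD2 in CTRL cells was larger in HCC4006 than in PC9 by 1.36 ± 0.06 (adjusted p = 3.05e-13).

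TEAD3 rose in every setting. In HCC4006 it had 7.17, 6.88 and 7.25 FPKM in YAP1 KO cells with OT and 3.31, 3.14 and 2.66 FPKM with DMSO, a log2 change of 1.01 ± 0.10 (adjusted p = 1.32e-06). HCC4006 CTRL cells had 8.95, 7.05 and 6.59 FPKM with OT and 2.38, 2.54 and 3.02 FPKM with DMSO, a log2 change of 1.22 ± 0.10, or 1.104 without CTRL OT replicate 1. In PC9 it averaged 18.1 ± 0.207 FPKM in YAP1 KO cells with OT and 10.5 ± 0.250 FPKM with DMSO, and 17.5 ± 0.332 FPKM in CTRL cells with OT and 12.8 ± 0.407 FPKM with DMSO (SD, n = 3 each). PC9 stood above HCC4006 in every library, while the OT response of CTRL cells was larger in HCC4006 by 0.80 ± 0.11 (adjusted p = 2.98e-06).

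TEAD4 fell with OT in both lines. HCC4006 YAP1 KO cells had 3.74, 4.93 and 4.71 FPKM with OT and 8.73, 8.82 and 8.14 FPKM with DMSO (log2 change -0.81 ± 0.10, adjusted p = 5.77e-06). HCC4006 CTRL cells had 6.43, 6.98 and 8.31 FPKM with OT and 10.9, 9.6 and 10.0 FPKM with DMSO (log2 change -0.44 ± 0.10, adjusted p = 0.000997). In PC9 the mean with OT was 0.528 of that with DMSO in YAP1 KO cells and 0.688 of it in CTRL cells. The responses of the CTRL cells of the 2 lines were not called different. In PC9 YAP1 KO cells the change was -0.87 ± 0.04 in log2(FPKM + 1), a scale that understates changes at the lower levels of HCC4006. The means in YAP1 KO cells were 4.46 FPKM with OT and 8.56 with DMSO in HCC4006, and 11.9 and 22.5 in PC9.

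TEAD1 had no common direction. With OT it was lower in HCC4006 YAP1 KO cells, at 8.28, 8.24 and 8.08 FPKM against 11.9, 11.2 and 11.1 FPKM with DMSO (log2 change -0.43 ± 0.10, adjusted p = 0.00118), a difference not called with the same FPKM sum (-0.25, adjusted p = 0.0798). It was higher in PC9 CTRL cells, at 10.5, 8.92 and 9.39 FPKM against 7.94, 8.03 and 8.02 FPKM with DMSO (log2 change 0.23 ± 0.06, adjusted p = 0.00228). In HCC4006 CTRL cells the change was -0.01 (95% interval -0.23 to 0.21) and turned to 0.19 with the same FPKM sum, uncalled. In PC9 YAP1 KO cells it was 0.10, and was called at 0.14 with median-of-ratios scaling (adjusted p = 0.0291) and at 0.19 with the same FPKM sum (adjusted p = 0.00974).

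The cofactors VGLL4 and VGLL3 rose with OT in both lines. VGLL4 had 18.1, 18.6 and 17.7 FPKM in HCC4006 YAP1 KO cells with OT and 7.04, 6.23 and 6.47 FPKM with DMSO. HCC4006 CTRL cells had 18.3, 17.0 and 16.3 FPKM with OT and 6.84, 6.91 and 6.99 FPKM with DMSO. The genotypes overlapped and the treatments did not, with log2 changes of 1.34 ± 0.05 in YAP1 KO cells (adjusted p = 1.99e-10) and 1.20 ± 0.05 in CTRL cells (adjusted p = 7.09e-10). PC9 YAP1 KO cells had 16.9, 16.4 and 16.4 FPKM with OT and 8.97, 9.92 and 10.1 FPKM with DMSO, and PC9 CTRL cells had 16.3, 15.3 and 16.3 FPKM with OT and 10.5, 10.6 and 10.7 FPKM with DMSO. The log2 changes there were 0.72 ± 0.04 and 0.55 ± 0.04 in YAP1 KO and CTRL cells, and the response of CTRL cells was larger in HCC4006 than in PC9 by 0.65 ± 0.07 (adjusted p = 5.95e-08). With DMSO the level in HCC4006 lay below that in PC9, and with OT the lines overlapped.

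VGLL3 was the least abundant member in PC9 and showed a large relative rise. In PC9 YAP1 KO cells it had 3.61, 3.03 and 3.35 FPKM with OT and 0.929, 0.976 and 1.1 FPKM with DMSO, a ratio of means of 3.32. PC9 CTRL cells had 4.06, 3.64 and 3.80 FPKM with OT and 0.890, 1.1 and 1.25 FPKM with DMSO, a ratio of 3.55. HCC4006 YAP1 KO cells had 1.98, 1.98 and 1.72 FPKM with OT and 0.695, 0.738 and 0.608 FPKM with DMSO, a ratio of 2.78. No OT library of any group overlapped its DMSO group, and HCC4006 CTRL cells had 3.04, 2.13 and 2.26 FPKM with OT and 0.941, 0.606 and 1.1 FPKM with DMSO. VGLL3 reached 1 FPKM in 7 of 12 HCC4006 libraries, 6 of them with OT, and in 9 of 12 PC9 libraries. In HCC4006 it therefore passed the filter through the OT groups, where it was high. Its calls with OT there are not independent of the filter.

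VGLL1 rose with OT in PC9, where it is abundant. YAP1 KO cells had 90.7, 95.2 and 91.5 FPKM with OT and 45.0, 41.9 and 45.2 FPKM with DMSO (log2 change 1.05 ± 0.04, adjusted p = 1.35e-10). CTRL cells had 138, 144 and 135 FPKM with OT and 82.5, 87.0 and 89.3 FPKM with DMSO (log2 change 0.68 ± 0.04, adjusted p = 1.21e-08). In HCC4006 the OT libraries had 0.540, 0.0569 and 0.111 FPKM in YAP1 KO cells and 1.495, 1.27 and 1.94 FPKM in CTRL cells, against values of 0 to 0.118 FPKM in all DMSO libraries. The difference in HCC4006 YAP1 KO cells, 0.26 in log2(FPKM + 1), was not called (adjusted p = 0.0873) but was without YAP1 KO OT replicate 2 (0.0314). VGLL1 at its highest in HCC4006 was far below its lowest value in PC9.

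The difference between the lines in the response of CTRL cells to OT was called for 6 of the 9 members (4 higher and 2 lower in HCC4006), against 65.3% of 13996 genes (39.3% higher, 26.0% lower). This share is near the background, with a median of 0.09 over the members and 0.10 over all genes. Beside WWTR1, TEAD2, TEAD3 and VGLL4, it took in VGLL1 (0.59) and VGLL3 (-0.33 ± 0.14, adjusted p = 0.0386). That of VGLL3 was lost without replicate 1 or 3 of HCC4006 CTRL DMSO, 2 or 3 of HCC4006 CTRL OT, 1 or 2 of PC9 CTRL DMSO, or 1 or 3 of PC9 CTRL OT (adjusted p from 0.0527 to 0.117). With libraries rescaled to the same FPKM sum the median over all genes was 0.23 and the split was 6829 higher and 2592 lower, against 5495 and 3640 with FPKM as deposited.

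TAZ messenger RNA in YAP1 KO cells lay close to its level in CTRL cells, with 95% intervals between -0.16 and 0.28 on the log2 scale. YAP1 transcript was lower in YAP1 KO cells of both lines, which checks the labels, and in PC9 TEAD4 and VGLL1 were lower as well and TEAD2 higher, under both treatments. In HCC4006 under OT, TEAD4 was lower beside YAP1. VGLL1 was called lower there too, but it entered the HCC4006 test only through the CTRL OT libraries in which it was high, so that call is not independent of the filter. In HCC4006 under DMSO, YAP1 was the single member called.

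The counts were 3 of 9 (0 higher, 3 lower, VGLL1 among them through the filter) in HCC4006 under OT, against 43.6% of all genes (27.2% higher, 16.4% lower), and 1 of 9 (0 higher, 1 lower) in HCC4006 under DMSO, against 17.8% (9.20% higher, 8.65% lower). They were 5 of 9 (1 higher, 4 lower) in PC9 under OT, against 53.7% (28.5% higher, 25.2% lower), and 6 of 9 (1 higher, 5 lower) in PC9 under DMSO, against 39.9% (19.8% higher, 20.0% lower). None of these shares is read as particular to the family, since YAP1 is the gene that was targeted. The medians over the members were -0.24, -0.06, -0.16 and -0.12 in the same order, and those over all genes 0.06, 0.02, 0.02 and 0.01. Under OT in HCC4006 the split over all genes was 2645 higher and 2655 lower with median-of-ratios scaling, against 3561 and 2155 with FPKM as deposited. Under DMSO in HCC4006 it was 1282 and 798 with the same FPKM sum, against 1206 and 1134.

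YAP1 in YAP1 KO cells with OT averaged 6.13 ± 0.190 FPKM in HCC4006 and 11.01 ± 0.841 FPKM in PC9, against 15.5 ± 1.51 and 34.2 ± 0.371 FPKM in CTRL cells with OT in the same order of lines (SD, n = 3 each). Residual transcript of a knocked-out gene says nothing about its protein. In HCC4006 the log2 difference was -1.20 ± 0.08 under OT and -1.87 ± 0.08 under DMSO, and the difference between these, 0.67 ± 0.11, was called (adjusted p = 0.00150). In PC9 the values were -1.55 ± 0.05 and -1.75 ± 0.05, and their difference of 0.20 ± 0.06 (adjusted p = 0.0425) was lost without any of the 12 libraries (adjusted p up to 0.0963) except replicate 2 of YAP1 KO OT and of YAP1 KO DMSO, and under 7 of 9 other settings. Under OT the YAP1 KO difference was smaller in size in HCC4006 than in PC9 by 0.35 ± 0.09 (adjusted p = 0.00534).

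**Figure D3:**
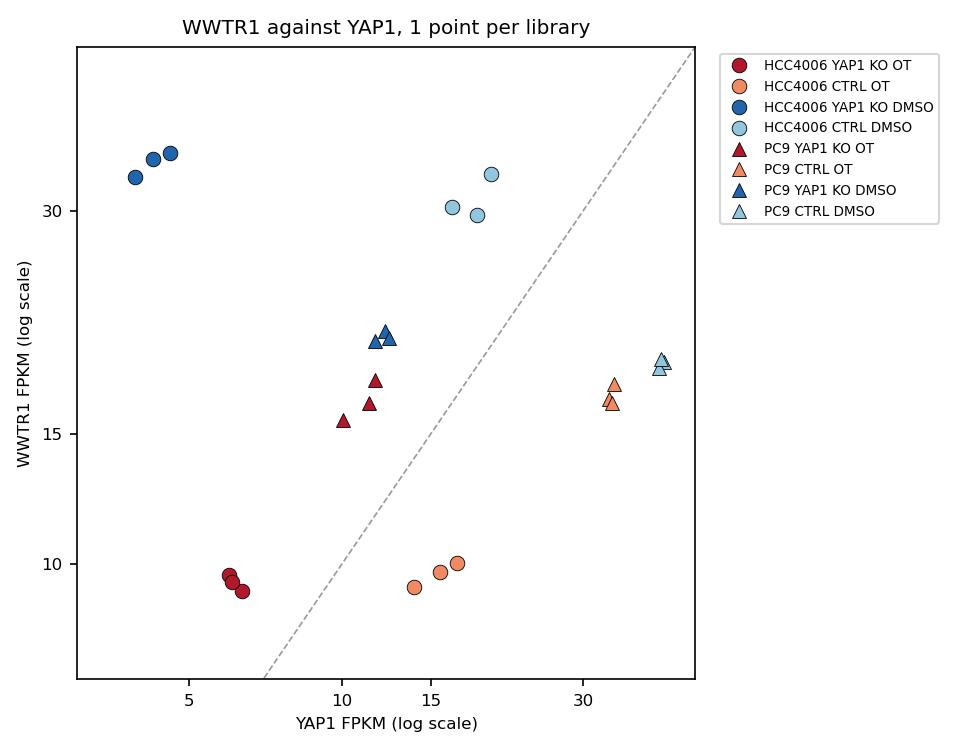
WWTR1 against YAP1, both in FPKM on log axes, with 1 point per library, coloured by genotype and treatment and shaped by line (circles HCC4006, triangles PC9). The dashed line marks equal levels, and the YAP1 KO libraries of both lines lie on the WWTR1 side of it, as do the HCC4006 CTRL libraries with DMSO.

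WWTR1 was not called in any comparison of YAP1 KO with CTRL cells. Under OT the log2 difference was -0.04 in HCC4006 (95% interval -0.16 to 0.09) and -0.03 in PC9 (-0.12 to 0.07). Under DMSO it was 0.16 in HCC4006 (0.03 to 0.28, adjusted p = 0.0665) and 0.11 in PC9 (0.01 to 0.21, adjusted p = 0.0535). The YAP1 KO libraries with DMSO lay at 35.3, 35.9 and 33.4 FPKM against 29.6, 30.4 and 33.7 FPKM in CTRL cells of HCC4006, with an overlap, and at 20.7, 20.2 and 20.03 FPKM against 18.8, 18.4 and 19.0 FPKM in PC9, with none. Both DMSO differences sat at the edge of the threshold. That in HCC4006 was called without CTRL DMSO replicate 3 (adjusted p = 0.0201) or CTRL OT replicate 1 (0.0430), and that in PC9 without YAP1 KO OT replicate 1 (0.0232) or 2 (0.0323).

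With YAP1 reduced and WWTR1 kept, TAZ made up the larger share of the coactivator transcripts in YAP1 KO cells. The ratio of WWTR1 to YAP1 was 8.25 ± 0.377 in HCC4006 YAP1 KO cells and 1.72 ± 0.123 in CTRL cells with DMSO, and 1.54 ± 0.0847 and 0.630 ± 0.0391 with OT. In PC9 it was 1.68 ± 0.0454 in YAP1 KO cells and 0.436 ± 0.00507 in CTRL cells with DMSO, and 1.51 ± 0.0528 and 0.496 ± 0.0131 with OT (SD, n = 3 each). The groups of each pair did not overlap, with an exact two-sided permutation p of 0.1 each, the smallest possible, and 0.114 after adjustment over 72 tests of this kind. The ratio has the targeted gene as its denominator. Its rise in YAP1 KO cells follows from the lower YAP1 transcript and is no separate result on WWTR1. The high ratio of HCC4006 YAP1 KO cells was that of DMSO, and with OT both lines stood close to each other.

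TEAD2 was higher in YAP1 KO cells of PC9. It had 38.3, 37.6 and 37.0 FPKM in YAP1 KO cells and 21.8, 22.1 and 21.2 FPKM in CTRL cells with OT (log2 difference 0.77 ± 0.03, adjusted p = 1.86e-09). With DMSO it had 30.5, 31.1 and 31.1 FPKM in YAP1 KO cells and 22.4, 22.9 and 22.1 FPKM in CTRL cells (log2 difference 0.44 ± 0.03, adjusted p = 2.72e-07). In HCC4006 no such difference was called, with 0.07 under OT (95% interval -0.07 to 0.20) and 0.11 under DMSO (-0.03 to 0.24). The YAP1 KO difference in HCC4006 minus that in PC9 was -0.70 ± 0.06 under OT (adjusted p = 2.53e-08) and -0.34 ± 0.06 under DMSO (adjusted p = 0.000373).

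TEAD4 was lower in YAP1 KO cells. Under OT it had 3.74, 4.93 and 4.71 FPKM in YAP1 KO cells of HCC4006 against 6.43, 6.98 and 8.31 FPKM in CTRL cells (log2 difference -0.59 ± 0.10, adjusted p = 0.000416), and 12.01, 11.8 and 11.97 FPKM in YAP1 KO cells of PC9 against 19.7, 18.2 and 18.9 FPKM in CTRL cells (-0.63 ± 0.04, adjusted p = 1.87e-07). Without CTRL OT replicate 1 the difference in HCC4006 was -0.67 (adjusted p = 0.000304). Under DMSO it was 23.04, 22.4 and 22.2 FPKM in YAP1 KO cells of PC9 against 27.9, 25.9 and 28.9 FPKM in CTRL cells, a called difference of -0.28 ± 0.04. In HCC4006 under DMSO it was -0.22 (adjusted p = 0.139). The lowest TEAD4 level of each line was thus in YAP1 KO cells with OT.

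TEAD3 was lower in YAP1 KO cells of PC9 under DMSO, at 10.6, 10.8 and 10.3 FPKM against 13.2, 12.4 and 12.9 FPKM (log2 difference -0.26 ± 0.03, adjusted p = 7.65e-05), and was not called under OT (0.05, 95% interval -0.03 to 0.13). TEAD1 was lower in YAP1 KO cells of PC9 under OT, at 8.54, 7.58 and 7.83 FPKM against 10.5, 8.92 and 9.39 FPKM (-0.24 ± 0.06, adjusted p = 0.00343). In HCC4006 under OT the difference of TEAD1 was also -0.24, with an adjusted p of 0.0588. It was -0.13 (adjusted p = 0.195) without CTRL OT replicate 1, and was called without CTRL DMSO replicate 2 or 3 or CTRL OT replicate 2 or 3 (adjusted p from 0.0383 to 0.0453), and with median-of-ratios scaling (-0.30, adjusted p = 0.0260).

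VGLL1 was lower in YAP1 KO cells of PC9. It had 90.7, 95.2 and 91.5 FPKM in YAP1 KO cells and 138, 144 and 135 FPKM in CTRL cells with OT, a ratio of 0.664 (log2 difference -0.58 ± 0.04 SE, adjusted p = 1.98e-07). With DMSO it had 45.0, 41.9 and 45.2 FPKM in YAP1 KO cells and 82.5, 87.0 and 89.3 FPKM in CTRL cells, a ratio of 0.511 (-0.95 ± 0.04, adjusted p = 1.00e-08). Its 4 groups in PC9 did not overlap, with the order CTRL OT, YAP1 KO OT, CTRL DMSO, YAP1 KO DMSO. In HCC4006 the difference under OT, -1.07 in log2(FPKM + 1), lies between levels at and below 1.94 FPKM, and was not called with a pseudocount of 0.01 (adjusted p = 0.0517). VGLL3 was not called in any of the 4 comparisons, though it was in HCC4006 under OT (-0.26) without CTRL DMSO replicate 2 (adjusted p = 0.0469), and VGLL4 was called only in PC9 under DMSO (-0.12 ± 0.04, adjusted p = 0.0471), a call lost without any of the 12 libraries (adjusted p up to 0.189) except replicate 3 of YAP1 KO DMSO and replicate 2 of CTRL OT.

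The test of whether OT acted differently in YAP1 KO cells and CTRL cells called 2 members in HCC4006 (1 higher, 1 lower), YAP1 and VGLL1, against 18.6% of genes (10.5% higher, 8.18% lower). That of VGLL1 rests on the CTRL OT group through which alone it passed the filter. In PC9 it called 5 (4 higher, 1 lower), against 27.0% (13.2% higher, 13.8% lower). The medians over the members were -0.19 and 0.17 in HCC4006 and PC9, and those over all genes 0.04 and 0.01. In PC9 the response to OT in YAP1 KO cells was above that in CTRL cells for VGLL1 (0.37 ± 0.06, adjusted p = 0.000504), TEAD2 (0.33 ± 0.04, adjusted p = 0.000112), TEAD3 (0.31 ± 0.05, adjusted p = 0.000581) and YAP1. For TEAD4 it was below (-0.35 ± 0.06, adjusted p = 0.00110). In 1 fit of all 24 libraries TEAD3 (adjusted p = 0.0545) and VGLL1 (0.0802) were not called in PC9. The split over all genes there was 2123 higher and 1373 lower with the same FPKM sum, against 1673 and 1750. In HCC4006 VGLL1 was not called with a pseudocount of 0.1 (adjusted p = 0.0527). Also in HCC4006 the estimate for TEAD4 was -0.37 (adjusted p = 0.0841), and it was called at -0.44 (adjusted p = 0.0357) without CTRL OT replicate 1. That for TEAD1, -0.42 (adjusted p = 0.0524), was called without CTRL DMSO replicate 3 (0.0289), CTRL OT replicate 2 (0.0415) or CTRL OT replicate 3 (0.0395). That for WWTR1, -0.19 (adjusted p = 0.106), was called without CTRL DMSO replicate 3 (0.0343). In PC9 the estimate for WWTR1, -0.14, was called without YAP1 KO OT replicate 1 (0.0245), and that for VGLL4, 0.17, without YAP1 KO DMSO replicate 3 (0.0451).

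The YAP1 KO difference was itself compared between the lines. The code of the YAP1 KO cells differs between the lines too, so effects of the line and of the code cannot be told apart. Under DMSO it was called different for 3 members (2 higher, 1 lower in HCC4006), against 29.4% of genes (15.7% higher, 13.7% lower). These were TEAD2, TEAD3 (0.41 ± 0.11, adjusted p = 0.00817) and VGLL1, whose value of 0.90 turned to -0.32 (adjusted p = 0.867) with a pseudocount of 0.01. Under OT it was called for 3 (1 higher, 2 lower), against 42.4% (24.4% higher, 18.0% lower), and these were YAP1, TEAD2 and VGLL1, whose value of -0.48 was -2.65 and not called with a pseudocount of 0.01 (adjusted p = 0.0639). The medians over the members were 0.05 under DMSO and -0.01 under OT, and those over all genes 0.01 and 0.04.

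Without the CTRL OT replicate 1 that stood apart, no member tested in HCC4006 lost its call or changed the sign of a called value, and VGLL1 no longer passed the filter there, as without either other CTRL OT library. The log2 change with OT in CTRL cells was -0.29 for YAP1, -1.61 for WWTR1, 1.28 for TEAD2, 1.104 for TEAD3, -0.37 for TEAD4 (adjusted p = 0.00459), 0.77 for VGLL3 and 1.16 for VGLL4, and that of TEAD1 was -0.13 (adjusted p = 0.155). The difference of YAP1 KO from CTRL cells under OT was -1.14 for YAP1 and -0.67 for TEAD4, and those of TEAD3 (0.05), TEAD2 (0.09), VGLL3 (-0.14) and VGLL4 (0.12) were not called. The response to OT in YAP1 KO cells above that in CTRL cells was 0.73 for YAP1 (adjusted p = 0.000755) and -0.30 for TEAD1 (adjusted p = 0.0611). A pair of values became called, the response of TEAD4 in that comparison at -0.44 (adjusted p = 0.0357) and WWTR1 in YAP1 KO against CTRL cells under DMSO at 0.16 (adjusted p = 0.0430).

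The members called in the comparisons of the lines were still called without it, 1 more was called in the OT response of CTRL cells, and 1 more in the YAP1 KO difference under DMSO. The OT response of CTRL cells in HCC4006 minus that in PC9 was -1.47 for WWTR1, 1.33 for TEAD2, 0.69 for TEAD3, 0.60 for VGLL1, -0.45 for VGLL3 (adjusted p = 0.00441) and 0.60 for VGLL4. The YAP1 KO difference under OT in HCC4006 minus that in PC9 was 0.41 for YAP1, -0.67 for TEAD2 and -0.50 for VGLL1 (adjusted p = 0.0145).

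The pool of TEAD transcripts was larger in PC9, and its make-up differed between OT and DMSO in both lines. The summed FPKM of TEAD1 to TEAD4 was 50.4 ± 0.493 in YAP1 KO cells with OT and 35.1 ± 0.852 with DMSO in HCC4006, and 54.0 ± 3.35 in CTRL cells with OT and 34.1 ± 1.59 with DMSO. In PC9 it was 75.6 ± 1.09 in YAP1 KO cells with OT and 71.3 ± 0.253 with DMSO, and 67.7 ± 1.48 in CTRL cells with OT and 70.9 ± 1.44 with DMSO (SD, n = 3 each). OT and DMSO groups did not overlap except in PC9 CTRL cells, whose exact permutation p was 0.2 and whose difference turned to 0.289 FPKM in favour of OT with median-of-ratios scaling.

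**Figure D4:**
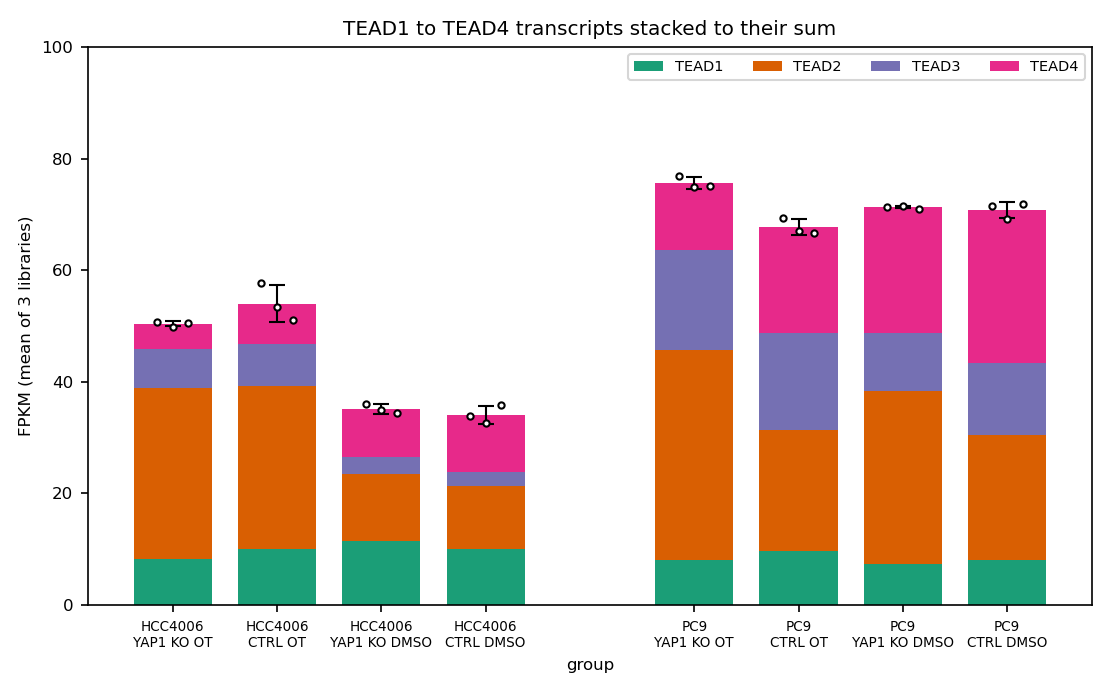
Mean FPKM of TEAD1 to TEAD4 stacked by group, with groups along the horizontal axis (HCC4006 left of PC9), open points for the sum in each library and bars for the SD of the sum (n = 3). TEAD2 takes the widest band in every group but PC9 CTRL with DMSO, and TEAD4 takes the narrowest of its bands in each line in YAP1 KO cells with OT.

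In HCC4006 TEAD2 was the TEAD transcript with the highest mean share under both treatments, and by a wider margin with OT. It made up 60.8 ± 1.27% of the sum in YAP1 KO cells with OT and 34.6 ± 1.63% with DMSO, and 54.2 ± 2.2% in CTRL cells with OT and 33.0 ± 2.66% with DMSO. TEAD4 made up 8.85 ± 1.32% in YAP1 KO cells with OT and 24.4 ± 0.831% with DMSO, and 13.5 ± 2.60% in CTRL cells with OT and 29.9 ± 2.18% with DMSO. The share of TEAD1 was lower too, at 16.3 ± 0.278% in YAP1 KO cells with OT against 32.4 ± 0.526% with DMSO. In CTRL cells it was 18.4 ± 1.77% with OT against 29.4 ± 2.34% with DMSO. None of these pairs of groups overlapped, and each had the smallest exact permutation p of 0.1 (0.114 adjusted). All shares are parts of the same sum, so that of TEAD1 can fall with no change in its level. TEAD1 itself averaged 9.95 FPKM with OT and 10.04 with DMSO in CTRL cells, and 8.20 and 11.4 in YAP1 KO cells. Without the CTRL OT replicate 1, the share in CTRL cells with OT minus that with DMSO was 21.9 percentage points for TEAD2 and -15.2 for TEAD4, and the TEAD sum was 18.1 FPKM higher with OT.

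In PC9 the make-up of the TEAD pool differed by genotype. TEAD2 made up 49.8 ± 0.504% in YAP1 KO cells and 32.04 ± 0.820% in CTRL cells with OT, and 43.3 ± 0.568% and 31.7 ± 1.22% with DMSO. TEAD4 made up 15.8 ± 0.164% in YAP1 KO cells and 27.99 ± 0.7% in CTRL cells with OT, and 31.6 ± 0.570% and 38.9 ± 1.39% with DMSO (SD, n = 3 each). The share of TEAD4 was below that of TEAD2 in every PC9 group but CTRL with DMSO. The coactivators together, YAP1 plus WWTR1, amounted to 0.309 ± 0.00244 of the TEAD sum in HCC4006 YAP1 KO cells with OT and 0.466 ± 0.0315 in CTRL cells with OT, against 1.11 ± 0.0416 and 1.45 ± 0.0381 with DMSO. In PC9 the ratio was 0.366 ± 0.0197 and 0.755 ± 0.0266 with OT in YAP1 KO and CTRL cells, against 0.454 ± 0.00752 and 0.870 ± 0.0101 with DMSO, and no OT group overlapped its DMSO group in either line.

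The order of the mean levels over the 8 groups also differed between members, and neighbours in that order often overlapped. YAP1 was highest in PC9 CTRL cells with DMSO, then in PC9 CTRL cells with OT, then in HCC4006 CTRL cells with DMSO and with OT, which overlapped, and lowest in the 4 YAP1 KO groups. WWTR1 was highest in the 2 DMSO groups of HCC4006, which overlapped, then in the DMSO groups and the OT groups of PC9, and lowest in the OT groups of HCC4006, which overlapped as well. TEAD3, TEAD4 and VGLL1 were higher in every group of PC9 than in any group of HCC4006. VGLL3 and VGLL4 were higher in every OT group of either line than in any DMSO group. TEAD1 varied least by ratio, with means between 7.36 and 11.4 FPKM, and most of its neighbours in the order overlapped.

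Genes around the family in the Hippo pathway were taken as lists, which were drawn up with earlier results of these data known. Of a signature of 22 YAP and TEAD target genes, 20 of 21 tested were lower and 0 higher in YAP1 KO than in CTRL cells of HCC4006 under OT (median -1.04), where 16.4% of all genes were called lower and 27.2% higher. In PC9 under OT 17 of 22 were lower and 1 higher (median -0.36), where 25.2% of all genes were lower and 28.5% higher. Under DMSO the counts were 8 lower and 0 higher in HCC4006 (median -0.14), beside 8.65% and 9.20% of all genes, and 7 lower and 9 higher in PC9 (median 0.03), beside 20.0% and 19.8%. CTGF, a matrix protein and classic target, differed between YAP1 KO and CTRL cells under OT by -3.44 ± 0.06 in HCC4006 (adjusted p = 1.09e-11) and -1.08 ± 0.09 in PC9 (adjusted p = 1.27e-06). TGFB2, which encodes a secreted growth factor, differed by -1.61 ± 0.06 and -0.93 ± 0.06 in HCC4006 and PC9, and CYR61 by -2.80 ± 0.04 and -1.22 ± 0.06. The same signature with OT in CTRL cells had 13 higher and 6 lower of 21 in HCC4006 (median 0.76), beside 45.0% and 36.6% of all genes, and 15 higher and 6 lower of 22 in PC9 (median 0.67), beside 32.0% and 40.9%. In YAP1 KO cells it had 9 higher and 11 lower (median -0.41) in HCC4006, beside 46.4% and 36.5%, and 10 higher and 8 lower (median 0.08) in PC9, beside 36.9% and 41.4%.

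Of 24 tested upstream regulators of the pathway, 16 were lower and 2 higher in YAP1 KO than in CTRL cells of HCC4006 under OT (median -0.36), and 13 lower and 2 higher in PC9 (median -0.18). Of all genes, 16.4% were lower and 27.2% higher in HCC4006 in this comparison, and 25.2% lower and 28.5% higher in PC9, and the same shares stand behind the lists that follow. Among them WWC1, which encodes the scaffold protein KIBRA, differed by -1.29 ± 0.06 in HCC4006 and -1.08 ± 0.05 in PC9. AJUBA, a LIM protein that restrains LATS kinases, differed by -1.12 ± 0.05 and -0.57 ± 0.08 in the same order of lines. The angiomotin family member AMOTL2, which binds YAP1 and is also in the target signature, differed by -1.53 ± 0.07 and -0.60 ± 0.05. Called regulators were more often lower than higher in both lines.

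The Hippo kinases and their partners had 5 higher and 3 lower of 17 in HCC4006 (median 0.09) and 6 higher and 3 lower of 17 in PC9 (median 0.06) in the same comparison, shares near those of all genes in HCC4006. The kinase LATS2, which is also a known YAP1 target, differed by -0.35 ± 0.07 (adjusted p = 0.00170) in HCC4006 and -0.58 ± 0.07 (adjusted p = 4.02e-05) in PC9, and its relative STK38L by 0.38 ± 0.05 and 0.42 ± 0.06. Of genes for the binding, retention and turnover of YAP1 and TAZ, 5 were lower and 4 higher of 19 in HCC4006 (median 0.02) and 9 lower and 4 higher of 18 in PC9 (median -0.07). SFN, the 14-3-3 sigma protein, differed by -0.71 ± 0.07 in HCC4006 and -1.31 ± 0.04 in PC9. Of other transcription factors and coactivators that bind YAP1, TAZ or TEAD, 7 were lower and 1 higher of 21 in HCC4006 (median -0.08), and 5 lower and 11 higher of 22 in PC9 (median 0.14). FOSL1, the AP-1 subunit FRA1, was lower in both lines, with differences of -0.68 ± 0.09 and -1.01 ± 0.06 in HCC4006 and PC9.

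The members did not share a profile. After each line's mean was subtracted from log2(FPKM + 1), TEAD3 and VGLL4 ran together over the 24 libraries (Pearson r 0.97), and WWTR1 ran opposite to VGLL4 (-0.93), TEAD3 (-0.90) and TEAD2 (-0.88). These are descriptions over libraries that share their treatment groups and their scale. Among 8447 other genes with a mean FPKM of at least 5, those closest to WWTR1 were OTUB2 (r 0.992), which encodes a deubiquitinase and is in the list of YAP1 and TAZ turnover, ANGPTL4 (0.991), a secreted lipase inhibitor, and VCAN (0.990), a matrix proteoglycan. VGLL4 was closest to ERBB2 (0.994), a receptor of the EGFR family, and to PARP9 and PARP14 (0.993 each). TEAD2 was closest to DNMT3A, a DNA methyltransferase, THRA and LTBP1, and TEAD3 to KHNYN, the non-coding MALAT1 and PLD1.

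For the other members the closest genes were less alike. TEAD4 was closest to TSPAN4 (0.968), STMN1, which encodes the microtubule protein stathmin, and TUBB2A. VGLL1 was closest to the adhesion receptor ICAM1 (0.963), MIEF2 and ITSN1, and VGLL3 to HEG1 (0.976), the non-coding UCA1 and ANKRD13A. YAP1 was closest to HKDC1 (0.897), PTN and the glycolytic enzyme ALDOC, and TEAD1 to CTDSPL (0.865), the transcription factor MITF and ARCN1. The highest values for YAP1 and TEAD1 were under 0.9.

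Markers of other cell types and overlapping genes were read beside the members. The fibroblast markers DCN, LUM, COL3A1 and PDGFRB did not pass 0.281 FPKM in any library. COL1A1 ran from 2.04 to 4.59 FPKM in HCC4006 and from 1.25 to 2.46 FPKM in PC9. COL1A2 ran from 0.224 to 16.0 FPKM in HCC4006 and from 0.0220 to 0.356 FPKM in PC9. The summed level of the 6 markers in HCC4006 ran from 7.29 to 7.71 in YAP1 KO cells with OT and from 2.37 to 2.66 with DMSO, and from 19.3 to 20.5 in CTRL cells with OT and from 3.50 to 3.84 with DMSO. Of these 6, 2 were tested in HCC4006 and both were called higher with OT in CTRL and in YAP1 KO cells. The leukocyte markers PTPRC and CD3E did not pass 0.0936 FPKM, and their sum with CD68 ran from 106 to 108 in HCC4006 YAP1 KO cells with OT and from 20.9 to 23.2 with DMSO, and from 81.6 to 83.8 in CTRL cells with OT and from 21.4 to 23.7 with DMSO. The lung lineage sum ran from 44.4 to 47.0 in HCC4006 YAP1 KO cells with OT and from 16.4 to 17.1 with DMSO, and from 56.7 to 62.7 in CTRL cells with OT and from 21.6 to 23.6 with DMSO. The endothelial sums did not pass 1.09 FPKM. Their part in the changes of the family was not tested. The antisense gene WWTR1-AS1, with 0.164 to 0.926 FPKM, overlaps WWTR1, and ATG7, with 2.86 to 4.92 FPKM, overlaps VGLL4 on the opposite strand (GENCODE 29). The sources used here do not say whether strand was used in counting.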

How the data were processed

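The authors deposited 1 table of FPKM with 24 library columns, all mapped to their labels. Per the labels' protocols, RNA was extracted with TRIzol and made into libraries with the TruSeq Stranded mRNA kit. The builds hg19 and GRCh37 and the tools Cufflinks 2.2.1, STAR 2.5.1b and DESeq2 1.10.1 appear in the submitters' processing notes with no roles. The sources used here do not give the annotation. FPKM are no counts, so limma 3.58.1 in R 4.3.3 was run on log2(FPKM + 1), which understates changes of low genes, with empirical Bayes moderation following the intensity trend and Benjamini-Hochberg adjustment over all genes. Genes needed FPKM of at least 1 in at least 3 libraries, which 7 members had in all libraries of both lines. Each line was fitted alone with 4 groups (8 residual degrees of freedom), and comparisons of lines used 1 fit of 24 libraries (16). The 95% intervals take the moderated SE and the t quantile at these degrees of freedom, so they are wider than limma's own. Median residual SDs were 0.0896 in HCC4006 and 0.0696 in PC9. Sums and ratios of members used exact permutation tests (SciPy 1.17.1). Relative depth came from the step of 1 fragment in genes under 0.3 FPKM. The members and lists were chosen with earlier results of these data known. All 9 members were named, with the 3 genes most like each (line-centred Pearson r, mean FPKM of at least 5), CTGF, CYR61, AMOTL2 and up to 3 genes per list with the largest mean YAP1 KO difference under OT, called the same way in both lines; several of these are not described. The tests were checked on simulated data. The alternatives tried were other pseudocounts (0.1, 0.01), other filters, scalings, moderation, library weights, a replicate block, 1 fit of all libraries and leaving out each library.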

Additional observations from a re-analysis of the deposited data

Results flagged for a closer look

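The genes below had a difference whose effect was itself called different between genotypes or lines, with limma on log2(FPKM + 1). For the response to OT, taken as YAP1 KO minus CTRL, these were, in HCC4006, YAP1 (0.67) and VGLL1 (-1.01). In PC9 they were YAP1 (0.20), TEAD2 (0.33), TEAD3 (0.31), TEAD4 (-0.35) and VGLL1 (0.37). The value of VGLL1 thus has opposite signs in the lines, but in HCC4006 it rests on levels at or under 1.94 FPKM, and VGLL1 passed the filter there only through the CTRL OT libraries.

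For the response of CTRL cells to OT in HCC4006 minus that in PC9, they were WWTR1 (-1.45), TEAD2 (1.36), TEAD3 (0.80), VGLL4 (0.65), VGLL1 (0.59) and VGLL3 (-0.33). For the YAP1 KO difference in HCC4006 minus that in PC9 under DMSO, they were TEAD2 (-0.34), TEAD3 (0.41) and VGLL1 (0.90). Under OT they were YAP1 (0.35), TEAD2 (-0.70) and VGLL1 (-0.48). TEAD2 differs between the lines in both genotype comparisons and in the response to OT. VGLL1 was called in all of these too, but it lay near zero in HCC4006 with DMSO. With a pseudocount of 0.01 neither of its genotype comparisons was called, and that under DMSO turned to -0.32.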

How the results depend on the processing

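The results were recomputed under 9 other settings and without each library, except that VGLL3, and VGLL1 in HCC4006, could not be fitted with the filter at 5 FPKM, and VGLL1 left the HCC4006 test without any CTRL OT library, so that 8 members were then counted. WWTR1 and TEAD2 in HCC4006, and TEAD3, TEAD4, VGLL3 and VGLL4 in all 4 comparisons of OT with DMSO, kept their direction and call under both scalings. VGLL3 passed the filter in HCC4006 through the OT libraries.

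The number of members called moved as follows. With pseudocounts of 0.1 and 0.01 the interaction in HCC4006 called 1 member. In 1 fit of all 24 libraries the interaction called 2 members in PC9 and 5 in HCC4006, and YAP1 KO against CTRL in HCC4006 called 5 under OT and 3 under DMSO. Leaving out a library gave 2 to 5 members for YAP1 KO against CTRL in HCC4006 under OT, 1 to 2 under DMSO, and 2 to 4 for the HCC4006 interaction. The causes were not tested.

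A called value reversed: the YAP1 KO difference of VGLL1 between lines under DMSO, 0.90, was -0.32 and uncalled with a pseudocount of 0.01. The other values that changed sign were small and uncalled. TEAD2 with OT in PC9 CTRL cells was 0.019 with median-of-ratios scaling and 0.0085 with the same FPKM sum. With the same sum, WWTR1 in PC9 YAP1 KO against CTRL cells under OT was 0.014 and TEAD1 with OT in HCC4006 CTRL cells 0.19. The summed TEAD FPKM with OT in PC9 CTRL cells was 0.289 above DMSO with median-of-ratios scaling. Without single libraries, TEAD1 with OT in HCC4006 CTRL cells ran from -0.13 to 0.064, and the difference of YAP1 KO from CTRL cells under OT from -0.14 to 0.051 for TEAD3 in HCC4006 and from -0.070 to 0.014 for WWTR1 in PC9. That of VGLL3 in PC9 under DMSO ran from -0.12 to 0.0065. The HCC4006 interaction ran from -0.10 to 0.0053 for TEAD2 and from -0.19 to 0.0098 for VGLL3. Differences in the TEAD pool did so as well: the summed FPKM in PC9 YAP1 KO against CTRL cells under DMSO ran from -0.345 to 0.996. In percentage points, the share of TEAD1 with OT in PC9 YAP1 KO cells ran from -0.0399 to 0.451, that of TEAD2 with OT in PC9 CTRL cells from -0.188 to 0.983, that of TEAD2 in CTRL DMSO cells of HCC4006 against PC9 from -0.247 to 2.31, and that of TEAD3 in HCC4006 YAP1 KO against CTRL cells under OT from -0.290 to 1.02.

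Replicate numbers were not used as pairs in the main fits. The deviations of libraries with the same number correlated at a median of 0.05 in HCC4006 (-0.15 to 0.236) and 0.00 in PC9 (-0.26 to 0.161). Libraries with different numbers had medians of -0.03 and -0.002 in the same order of lines. Between CTRL DMSO and CTRL OT of HCC4006, same-number pairs correlated at 0.134, 0.146 and 0.143, and every different-number pair was negative. Between YAP1 KO DMSO and YAP1 KO OT of HCC4006, every same-number pair was negative. Because the groups differ in sign, these values do not decide whether the numbers pair the dishes of HCC4006. With the replicate block, the members called were 4 for YAP1 KO against CTRL in HCC4006 under OT, 3 for the HCC4006 interaction, 5 for YAP1 KO against CTRL in PC9 under DMSO, 4 for the PC9 interaction and 7 for the line difference in the OT response, and the other 9 counts did not move.

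The depth of each library is unknown, and 3 dishes per group limit each value to the spread of those dishes. VGLL1 in HCC4006 and VGLL3 lie near 1 FPKM, where log2 changes depend on the pseudocount.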
